A study of Mus musculus with 23 samples.

Results

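The border macrophages of the mouse brain were compared by fate-mapping label within mice that had refilled their macrophage niche. Subdural CNS-associated macrophages (sdCAMs, the CD206+ macrophages of the leptomeninges and perivascular spaces) were sorted into tdT+ and tdT- cells from BLZ945 mice 1 day after a stroke. The libraries were picked by sample title and library name, which gave 8 of the 23 libraries of the series, namely 3 tdT+ libraries (F2, F3 and M2) and 5 tdT- libraries (F1, F2, F3, M1 and M2). F2, F3 and M2 gave both populations from the same animals. The other 15 libraries were tdT- sdCAMs of CTL mice (n = 5), which serve here as background, and microglia.

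All animals were Ccr2CreERT2/+ R26tdT/tdT. In this line an inducible Cre recombinase is driven from the Ccr2 locus, and tamoxifen lets it switch on the red fluorescent protein tdTomato (tdT) at the Rosa26 locus in cells that express Ccr2 at that time, and in their descendants. BLZ945 blocks the CSF-1 receptor, on which macrophages depend, and depletes them. It was given by gavage at 200 mg/kg on 7 days, and CTL mice received vehicle. Tamoxifen was given in doses of 2 mg around the end of the gavage. Stroke was induced 8 weeks after the last gavage by thrombin injected into the middle cerebral artery. The choroid plexus was removed before sorting. Each BLZ945 library held cells of 2 animals, except those named F2, which came from 1 animal. By the library names, tdT- F2 and tdT- M1 carry the same number for 1 animal. Whether they share it is not clear, and if they do, the 5 tdT- libraries are not all independent. The label marks cells by Ccr2 expression during a few days, so the tdT- population can also hold unlabelled descendants of Ccr2-expressing cells.

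Border macrophages arise before birth from yolk sac progenitors, and blood monocytes can take over an emptied niche. Long-lived resident macrophages of many tissues carry scavenger and lectin receptors such as Cd163, Timd4, Lyve1 and members of the Cd209 family, whereas macrophages of monocyte origin often carry more MHC class II, the molecules that present peptides to CD4 T cells. The sort itself used CD206 (Mrc1), so similar Mrc1 levels in both populations follow partly from the gate.

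Levels are given as CPM, the count relative to the library total scaled by TMM factors, in the order F2, F3, M2 for tdT+ and F1, F2, F3, M1, M2 for tdT- libraries. The 8 libraries held 9433960 to 11796081 counts, and 3 counts, taken as the smallest level told from 0, stood at 0.261 to 0.328 CPM. Such floors cover counting error only. Sex-linked genes matched the letter of the title in 8 of 8 libraries. Summed markers of other cells set a few libraries apart. The 8 choroid plexus or ependymal markers summed to 2288 CPM in tdT+ F3, mostly Ttr and Enpp2, against 0.582 and 1.62 CPM in the other tdT+ libraries and 1.44 to 179 CPM in tdT- libraries. The 18 monocyte markers summed to 524 CPM in tdT- F1, against at most 185 CPM in the other tdT- libraries and 96.0 to 216 CPM in tdT+ libraries, where 5 of the 18 were at 0 in every library. Microglia markers summed to 2486 to 3214 CPM in tdT+ and 2359.9 to 3346 CPM in tdT- libraries. Of the 98 marker genes of 15 other cell types that could be tested, 0 were called by edgeR, 21 had an unadjusted p under 0.05 (21.4%, against 6.91% of all genes tested), and DESeq2 called 4, with Cd79b of B cells and Aqp4 of astrocytes higher in tdT+ cells and Adgre4 of monocytes and Hbb-bt of red cells lower. What part these cells have in the results below was not tested, and in bulk libraries fewer cells of a type and less RNA per cell cannot be told apart.

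The transcript of the reporter locus separated the sorted populations. Gt(ROSA)26Sor stood at 39.2, 40.7 and 28.6 CPM in tdT+ and at 5.91, 4.82, 7.995, 4.54 and 8.63 CPM in tdT- libraries. All tdT+ libraries lay above all tdT- libraries, and also above the tdT- CTL libraries at 3.65 to 9.44 CPM. On the log2(CPM + 1) scale the means differed by 2.35 (p = 0.0357 in an exact permutation test, two-sided, the lowest p within reach of 3 against 5 libraries). Transcripts of the sdCAM identity overlapped between the populations. Mrc1 (CD206) stood at 2381, 2792 and 2522 CPM and 2687, 2637, 3190.3, 3091 and 2994 CPM. Lyz2 (lysozyme) ranged over 9351 to 13246 CPM and 8543 to 12901 CPM, Apoe over 39933 to 45506 CPM and 33868 to 57694 CPM, and Pf4 over 2420.4 to 4104 CPM and 2734 to 4461 CPM. None of these was called, and the ranges of Mrc1, Lyz2, Apoe and Pf4 overlapped between the populations.

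The main difference between the populations was a set of transcripts found in every tdT- library and at lower levels in tdT+ sdCAMs. Of 13076 genes tested with edgeR's quasi-likelihood test at a Benjamini-Hochberg adjusted p under 0.05, 27 were called (0.206%), and 903 had an unadjusted p under 0.05 (6.91%). Below, called refers to this test unless another tool is named. Of the called genes, 25 were lower in tdT+ cells (0.191%) and 2 were higher (0.0153%). In all 27 the CPM of the populations did not overlap, which held for 3.4% of all genes tested (1.71% lower and 1.69% higher in tdT+ cells). Without overlap, the 3 pools with both populations move in the direction of the fold change by definition, so their agreement adds nothing. Of the 25 lower genes, 21 were lower by 4-fold or more, with genes at 0 taken at their bound, and 5 were at 0 in every tdT+ library. Their levels in tdT- cells of BLZ945 mice were spread widely, with a mean of at least 100 CPM for 9, of 20 to 100 CPM for 9 and under 20 CPM for 7 genes. All 25 also lay below every tdT- CTL library in tdT+ cells (5.04% of all genes tested), while the tdT- BLZ945 mean was inside the CTL range for 16 of them (73.4% of all genes tested). In microglia of BLZ945 mice, 11 of the 25 had a mean under 1 CPM (44%), against 16.8% of all genes tested. Some of the 25 had a higher mean in these microglia than in tdT- sdCAMs of BLZ945 mice. Among them were Sgce (164 against 96.7 CPM), Xlr (76.7 against 45.4 CPM), Postn and Mcts2. The set is therefore not specific to sdCAMs as a whole, and microglia were not tested against sdCAMs here.

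**Figure D1:**
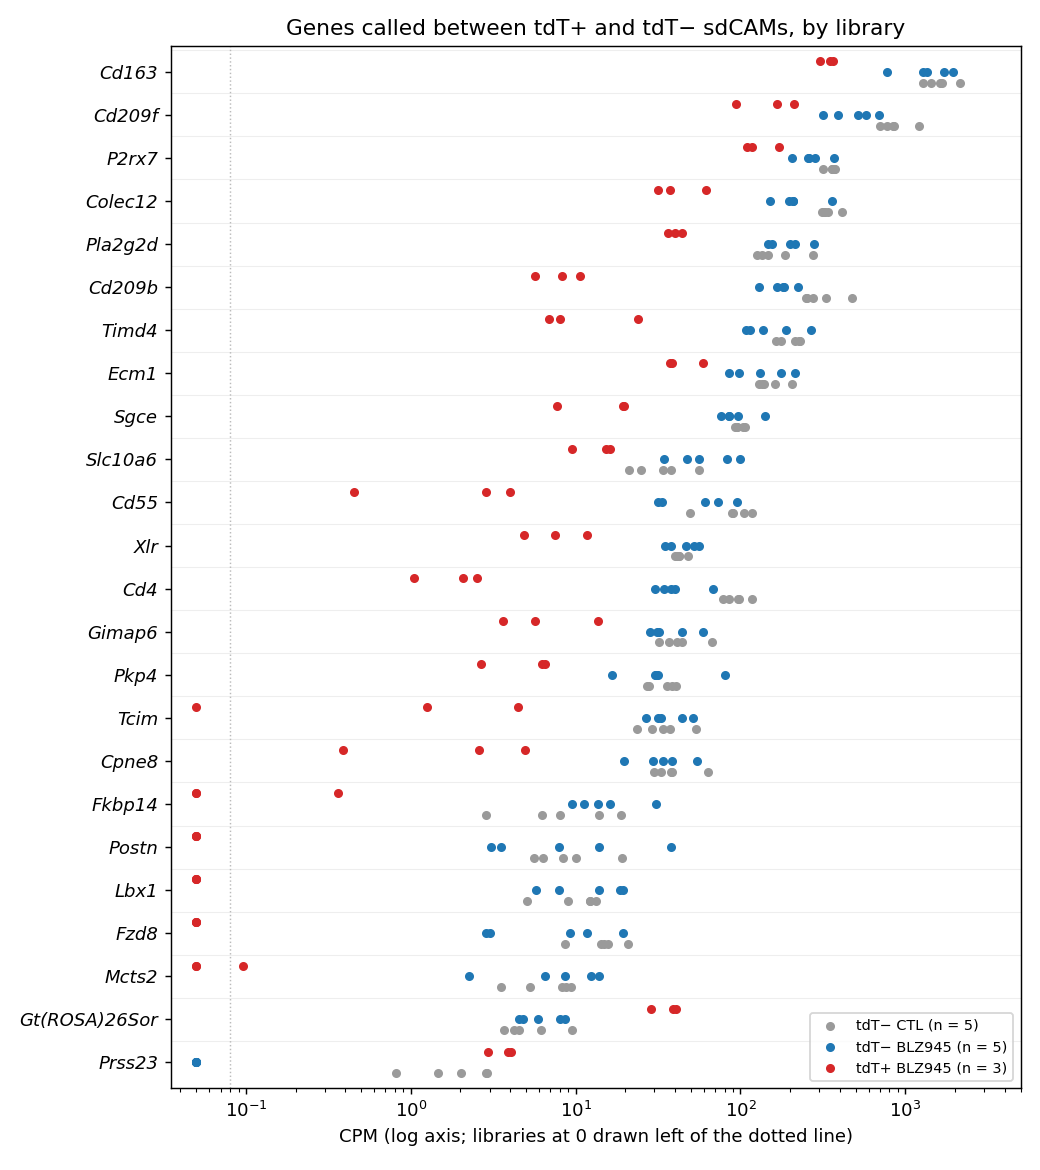
CPM (log axis) of 24 of the 27 called genes, for each tdT+ BLZ945 library (red), tdT- BLZ945 library (blue) and tdT- CTL library (grey), with libraries at 0 drawn left of the dotted line. The red points lie left of all blue points for 22 genes and right of them for Gt(ROSA)26Sor and Prss23.

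Leaving out 1 library at a time left between 16 and 27 genes called. The count fell to 16 without tdT+ F2, to 17 without tdT+ F3 and to 17 without tdT- M1. Without tdT- F2, which carries an animal number of tdT- M1, it was 26. The 11 genes called in all 8 of these fits were Cd209b, Cd4, Colec12, Lbx1, Timd4, Sgce, Cd163, Pla2g2d, Xlr, Cd55 and Fzd8. The pools also allow a paired fit. A fixed block for the pool in the 8 BLZ945 libraries (2 residual degrees of freedom) left 1 of 12032 genes called (0.00831%), which was Cd209b, lower, at an adjusted p of 0.0161. The other 26 kept their direction and an unadjusted p under 0.05, with adjusted p from 0.0934 to 0.9996 (edgeR's quasi-likelihood test). Of all 12032 genes, 412 had an unadjusted p under 0.05 in that fit. The 26 were picked on the same libraries, so their direction and p are no independent support. That fit also leaves out the CTL libraries, and its contrast rests on the 3 pools with both populations. The same 8 libraries without a block gave 7 calls, all among the 27, and the pool as a random block in the 13 libraries (limma voom) kept 18 of the 27. Values with the fixed block are given below for the called genes named here and for the main class II genes.

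**Figure D2:**
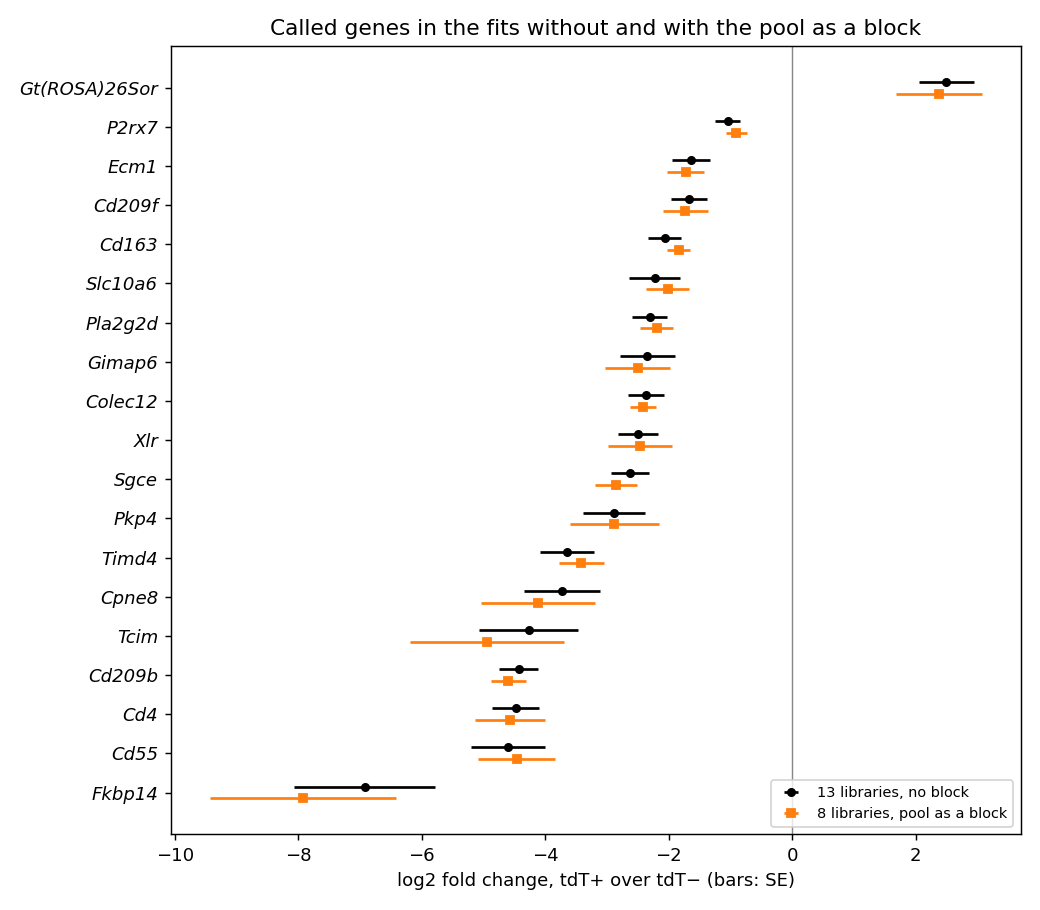
Log2 fold change of tdT+ over tdT- (bars show the SE) for called genes whose fold could be fitted, from the 13 sdCAM libraries without a block (black circles) and from the 8 BLZ945 libraries with the pool as a block (orange squares). The contrast with the block rests on the 3 pools with both populations. Both estimates lie on the same side of 0 for every gene shown, with Cd209b at -4.43 and -4.60.

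Cd209b, Cd209f, Colec12, Cd163 and Timd4, which encode lectin or scavenger receptors, were all lower in tdT+ cells. Cd209b encodes SIGN-R1, a C-type lectin that binds microbial sugars and is known from macrophages of the splenic marginal zone. It stood at 8.27, 5.63 and 10.6 CPM in tdT+ and at 129, 223, 182, 166 and 181 CPM in tdT- libraries. The lowest tdT- library was above 10 times the highest tdT+ library, and the fold was 21.6 (log2 -4.43, SE 0.31, adjusted p = 2.72e-06, edgeR's quasi-likelihood test). Its relative Cd209f stood at 212, 166 and 93.8 CPM against 391, 581, 317, 515 and 689 CPM. The gap between the populations was narrower here, a 3.17-fold decrease (adjusted p = 0.0256), and the call was lost without tdT- F2 (0.0504), tdT+ F3 (0.126), tdT- M1 (0.0625) and tdT+ M2 (0.111) as adjusted p. Cd209g, named here after its values were seen, stood at 46.0, 14.6 and 13.2 CPM against 64.1, 106, 59.7, 61.8 and 83.2 CPM and did not overlap either, but was not called (adjusted p = 0.199, against 0.00532 with DESeq2). Copies of the Cd209 family resemble each other, so reads could be split between them by the authors' counting.

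Colec12 encodes a scavenger receptor with a C-type lectin domain, and Cd163 encodes the receptor for haemoglobin bound to haptoglobin. Colec12 stood at 37.1, 31.5 and 61.9 CPM in tdT+ and at 197, 150.4, 209, 209 and 358 CPM in tdT- libraries. Cd163 stood at 303, 348 and 362 CPM against 1277, 772, 1351, 1957 and 1714 CPM. All tdT+ libraries lay below all tdT- libraries for both genes, and among tdT- libraries Colec12 was highest in M2 and Cd163 lowest in F2. The decreases were 5.17-fold for Colec12 (log2 -2.37, SE 0.29, adjusted p = 8.93e-04) and 4.19-fold for Cd163 (log2 -2.07, SE 0.26, adjusted p = 0.00117).

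Timd4 encodes Tim-4, a receptor for phosphatidylserine through which macrophages take up dying cells. Its level was 6.92, 8.01 and 24.04 CPM in tdT+ and 189.9, 115, 108, 266 and 137 CPM in tdT- libraries. tdT+ M2 was the highest of the tdT+ libraries and still lay below every tdT- library, and the fall was 12.6-fold (log2 -3.65, SE 0.43, adjusted p = 8.93e-04). The log2 change of Timd4 was -4.43 without tdT+ M2 and -3.34 without tdT+ F2. In the fit with the block the log2 changes were -2.42 for Colec12, -1.84 for Cd163, -3.41 for Timd4 and -1.73 for Cd209f, with adjusted p of 0.0934, 0.101, 0.101 and 0.715.

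Among other genes used to mark border macrophages, Lyve1, Fcna, Folr2 and Stab1 were not called by edgeR. Lyve1, the hyaluronan receptor, stood at 1682, 1114 and 1601 CPM in tdT+ and at 2072, 2532, 2635, 2763 and 3309 CPM in tdT- libraries. The populations did not overlap, but the log2 difference of -0.86 (SE 0.20) was not called (adjusted p = 0.1503). Fcna, which encodes ficolin A of the lectin pathway of complement, stood at 321, 154 and 242 CPM against 411, 664, 477, 999 and 1035 CPM and was not called either (adjusted p = 0.0611). DESeq2 called both, with adjusted p of 0.00345 for Lyve1 and 6.51e-05 for Fcna. Folr2 ranged over 102 to 165 CPM and 148 to 259.6 CPM, and Stab1 over 680.3 to 872 CPM and 655 to 1153 CPM, with overlap.

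Over lists of such genes, chosen with results of these data known, the called members were a minority. Colec12 and Cd163 each sit in more than 1 of the lists below. Of 28 resident border macrophage genes tested, 3 were called lower (Cd163, Timd4 and Colec12, against 0.191% of all genes) and 0 higher (0.0153% of all genes). At an unadjusted p under 0.05 the counts were 8 lower (4.51% of all genes) and 1 higher (2.39% of all genes). The median log2 fold change of the list was -0.29, beside -0.02 over all genes, and 16 of the 28 were lower in 3 of 3 pairs (11.8% of all genes). Of 22 C-type lectin and Cd209 family genes, 3 were called lower (Cd209b, Cd209f and Colec12, against 0.191% of all genes), and at an unadjusted p under 0.05 the counts were 5 lower and 1 higher, with a median of -0.55. Over the members tested with the pool as a fixed block the median was -0.22, beside 0.06 over all genes. Several other members overlapped between the populations, among them Clec4n at 759 to 837 CPM and 830.3 to 1135 CPM, Clec4a3 at 513 to 611 CPM and 463 to 807 CPM and Mgl2 at 572 to 1143 CPM and 554 to 827 CPM. Of 12 genes of iron and heme handling, edgeR called Cd163, and DESeq2 called Cd163, Slc40a1 and Hpgd, all lower (0.191% of all genes were called lower by edgeR and 0.834% by DESeq2). Slc40a1, the iron exporter ferroportin, stood at 128, 88.1 and 151 CPM against 444, 207, 198, 466 and 518 CPM with no overlap (edgeR adjusted p = 0.0726).

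Promoters of 3 genes that fell are shown because they carry some of the largest decreases, with the matches to 3 short motifs of macrophage and MHC gene control in capitals. The sequences are from RefSeq on build GRCm38.p6 and run from 250 bases before to 50 bases after the start of transcription on the gene's strand. Cd209b lies at chr8:3926792-3927091, minus strand, Timd4 at chr11:46810549-46810848, plus strand, and Cd55 at chr1:130462695-130462994, minus strand.
Cd209b: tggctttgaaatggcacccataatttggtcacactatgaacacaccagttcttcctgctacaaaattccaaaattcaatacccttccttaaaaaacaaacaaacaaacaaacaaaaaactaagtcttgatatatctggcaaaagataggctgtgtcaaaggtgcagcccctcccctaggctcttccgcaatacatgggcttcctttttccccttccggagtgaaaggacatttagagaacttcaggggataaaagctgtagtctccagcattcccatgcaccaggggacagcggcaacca
Timd4: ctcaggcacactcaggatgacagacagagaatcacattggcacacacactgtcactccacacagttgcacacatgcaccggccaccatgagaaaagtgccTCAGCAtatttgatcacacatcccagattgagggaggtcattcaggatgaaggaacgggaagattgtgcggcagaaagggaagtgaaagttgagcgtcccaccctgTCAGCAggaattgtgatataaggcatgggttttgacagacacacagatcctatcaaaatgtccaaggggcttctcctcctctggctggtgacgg
Cd55: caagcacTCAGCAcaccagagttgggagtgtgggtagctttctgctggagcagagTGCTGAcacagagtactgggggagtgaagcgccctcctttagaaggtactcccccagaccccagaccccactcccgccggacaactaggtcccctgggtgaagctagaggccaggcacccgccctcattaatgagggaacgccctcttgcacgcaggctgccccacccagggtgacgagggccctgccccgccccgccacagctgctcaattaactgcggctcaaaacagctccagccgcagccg
The motifs were searched on both strands. The PU box GAGGAA, bound by the macrophage factor PU.1, was in 28.3% of all 32851 promoters of this length in the table, the MAF half-site TGCTGA in 19.5%, and the Y box CTGATTGG of MHC class II promoters in 4.1%. Timd4 held the MAF half-site on the reverse strand at positions 101 and 207, and Cd55 held it on the reverse strand at position 8 and on the forward strand at position 56, counted from 1 at the left end. Cd209b held none of the 3 motifs. Of the 25 lower genes, 17 were in the table, with 21 promoters in all. Of these promoters, 8 held the PU box (38.1%), 6 the MAF half-site (28.6%) and 1 the Y box (4.76%). Cd4, Colec12, Lbx1, Sgce, Fzd8 and Tcim were among those not in it. A match describes letters of the reference and is not a measured binding site.

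Further called genes have known roles in immune cells. Cd4, known as the co-receptor of helper T cells and also made by some tissue macrophages, stood at 2.07, 1.05 and 2.52 CPM in tdT+ and at 34.1, 37.7, 30.3, 40.2 and 68.2 CPM in tdT- libraries. The decrease was 22.3-fold (log2 -4.48, SE 0.38, adjusted p = 2.25e-05). The highest tdT- library was M2, and the highest summed T or NK cell markers were in tdT- F1 at 39.9 CPM, against 1.89 to 5.44 CPM in the other tdT- libraries and 2.16 to 22.4 CPM in tdT+ libraries. All tdT- libraries carried more Cd4 than the tdT+ libraries, and the part of T cells in this was not tested. In tdT- CTL cells Cd4 was at 78.0 to 117 CPM. Gimap6, a GTPase of the immune-associated family, stood at 5.67, 3.62 and 13.7 CPM against 31.3, 28.2, 32.2, 44.4 and 58.9 CPM, a 5.09-fold decrease (adjusted p = 0.0432). That call held without tdT+ M2 and tdT- F2 and was lost without any of the other libraries, at adjusted p of 0.0619 to 0.301.

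Pla2g2d encodes a secreted phospholipase A2, and P2rx7 an ion channel opened by extracellular ATP. Pla2g2d stood at 40.02, 36.4 and 44.2 CPM in tdT+ and at 199.6, 280.2, 155, 216 and 147 CPM in tdT- libraries. P2rx7 stood at 117, 109.8 and 171 CPM against 259, 256, 205, 368 and 282.5 CPM. The 3 tdT+ libraries lay within a narrow band for Pla2g2d, and M2 was the highest of them for P2rx7. The decreases were 4.96-fold for Pla2g2d (log2 -2.31, SE 0.29, adjusted p = 0.00117) and 2.06-fold for P2rx7 (log2 -1.05, SE 0.20, adjusted p = 0.0409). The call of P2rx7 held without tdT+ M2 and tdT- F3, and leaving out any other library gave adjusted p of 0.0505 to 0.301.

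Cd55, or decay accelerating factor, restrains the complement system by dissolving its convertases at the cell surface. It stood at 0.450, 2.86 and 3.98 CPM in tdT+ and at 60.8, 31.4, 33.2, 95.3 and 73.2 CPM in tdT- libraries, a 24.2-fold decrease (log2 -4.60, SE 0.60, adjusted p = 0.00146). Of the 15 complement genes tested, 13 were not called by edgeR, of which DESeq2 called C4b lower, and the median log2 fold change was -0.16. C1qa stood at 7081 to 8504 CPM and 5833 to 9405 CPM, C1qb at 11579.9 to 14382 CPM and 8806 to 16615 CPM, and C1qc at 9816 to 11612 CPM and 8374 to 13255 CPM, all with overlap. The receptors C3ar1 and C5ar1 overlapped too, with log2 differences of -0.16 and -0.21. In the blocked fit the log2 changes were -4.57 for Cd4, -2.50 for Gimap6, -2.20 for Pla2g2d, -0.90 for P2rx7 and -4.46 for Cd55, with adjusted p of 0.125, 0.715, 0.122, 0.589 and 0.174.

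The remaining lower genes came from varied families. Sgce, the imprinted gene of epsilon-sarcoglycan, stood at 19.3, 7.72 and 19.7 CPM in tdT+ and at 76.2, 141, 85.2, 85.7 and 96.1 CPM in tdT- libraries, and fell 6.20-fold (log2 -2.63, SE 0.31, adjusted p = 8.93e-04). Pkp4, an armadillo protein of cell junctions, stood at 6.47, 2.67 and 6.20 CPM against 30.4, 16.6, 31.4, 30.8 and 80.1 CPM. tdT- M2 was far above the other tdT- libraries for Pkp4, and the 7.38-fold decrease (adjusted p = 0.0256) was not called without tdT+ F2 (0.0912), tdT+ F3 (0.138) and tdT+ M2 (0.0842) as adjusted p. Cpne8, a calcium-dependent membrane-binding copine, stood at 4.95, 2.57 and 0.388 CPM against 19.6, 29.7, 38.7, 54.4 and 33.8 CPM, a 13.27-fold decrease (adjusted p = 0.0169) lost without tdT+ F3 (0.108). Its log2 change was -3.73, with -4.55 without tdT+ F2 and -3.20 without tdT+ M2. Xlr, of an X-linked family with near-identical copies, stood at 7.46, 11.7 and 4.85 CPM against 46.6, 55.9, 34.8, 51.9 and 38.03 CPM and fell 5.66-fold (log2 -2.50, SE 0.32, adjusted p = 0.00146). The tdT- libraries of Xlr lay close together and well above the tdT+ libraries.

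Ecm1 (extracellular matrix protein 1), Slc10a6 (a transporter of sulfated steroids) and Tcim were called near the threshold. Ecm1 stood at 59.4, 37.6 and 38.6 CPM in tdT+ and at 97.3, 177, 84.7, 131 and 215 CPM in tdT- libraries, and fell 3.11-fold (adjusted p = 0.0383). Slc10a6 stood at 15.3, 9.44 and 16.1 CPM against 47.2, 55.6, 34.4, 99.3 and 82.7 CPM, a 4.69-fold decrease (adjusted p = 0.0406). In each of these the highest tdT+ library was below the lowest tdT- library, which was F3. Tcim stood at 4.50, 0 and 1.26 CPM against 31.6, 44.0, 32.9, 51.7 and 26.7 CPM, with a fitted 19.3-fold decrease (adjusted p = 0.0409). Its log2 change was -4.27, with -5.87 without tdT+ F2 and -3.67 without tdT+ F3. Ecm1 was still called without tdT- F1 and tdT- F3, Slc10a6 without tdT- F1 and tdT- F3 and Tcim without tdT+ F2, tdT+ F3 and tdT- M2. Leaving out any other library gave adjusted p of 0.0529 to 0.235 for Ecm1, 0.0505 to 0.235 for Slc10a6 and 0.0571 to 0.168 for Tcim.

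Several lower genes were at or near 0 in tdT+ cells, so only a bound or a ratio of counts can be given. Lbx1, a homeobox factor, had 0 counts in the tdT+ libraries and stood at 7.89, 5.75, 13.9, 19.4 and 18.7 CPM in tdT- libraries, at least 46.5-fold lower in tdT+ cells when 3 counts per library are taken as the floor (adjusted p = 8.93e-04). Fzd8, a Wnt receptor, had 0 counts against 3.01, 9.24, 11.7, 2.84 and 19.5 CPM, at least 32.8-fold lower (adjusted p = 0.00371). Postn, the matrix protein periostin, had 0 counts against 3.53, 3.08, 13.9, 38.1 and 7.87 CPM, at least 47.1-fold lower (adjusted p = 0.0140). The tdT- libraries of these genes differed among themselves by several fold, with M1 the highest for Postn and M2 for Fzd8. The predicted gene C330018A13Rik was also at 0 in tdT+ cells, at least 12.01-fold lower (adjusted p = 0.0256).

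Mcts2, an expressed retrogene copy of Mcts1, stood at 0, 0.0954 and 0 CPM in tdT+ and at 8.61, 13.9, 2.26, 6.53 and 12.5 CPM in tdT- libraries. With 1 count in all tdT+ libraries together, the tdT- over tdT+ ratio per unit of depth was 269 with a 95% counting interval of 48.1 to 10662 (adjusted p = 0.00800). Fkbp14, a folding enzyme of the endoplasmic reticulum, stood at 0.360, 0 and 0 CPM against 9.44, 30.9, 16.3, 11.3 and 13.7 CPM (log2 -6.93, SE 1.14, adjusted p = 0.0168). All 4 tdT+ counts of Fkbp14 were in F2, so its fitted change rests on 1 tdT+ library. Mcts2 and Fkbp14 were low genes even in tdT- cells, with F2 the highest tdT- library. Calls were lost for Mcts2 without tdT+ F2 (0.0595) and tdT+ M2 (0.0511), for Fkbp14 without tdT+ F3 (0.0871) and tdT+ M2 (0.0765), for Postn without tdT+ F2 (0.0675), tdT+ F3 (0.0675) and tdT+ M2 (0.0557) and for C330018A13Rik without tdT+ F2 (0.110), tdT+ F3 (0.0991), tdT- M1 (0.0540) and tdT+ M2 (0.0843), each as adjusted p. Blocked by pool, adjusted p was 0.122 for Sgce, 0.9996 for Pkp4, 0.860 for Cpne8, 0.715 for Xlr, 0.451 for Ecm1, 0.445 for Slc10a6, 0.9996 for Tcim, 0.948 for Lbx1, 0.9996 for Fzd8, 0.9996 for Postn, 0.9996 for Mcts2, 0.608 for Fkbp14 and 0.9996 for C330018A13Rik.

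The genes called higher in tdT+ cells were the reporter locus and Prss23, a secreted serine protease. The fit gave Gt(ROSA)26Sor a log2 change of 2.50 (SE 0.44, adjusted p = 0.0269), called without tdT- F2 and tdT- M2 and not without any other library (adjusted p of 0.0511 to 0.157). Prss23 stood at 4.05, 2.96 and 3.88 CPM in tdT+ libraries and had 0 counts in all 5 tdT- BLZ945 libraries, at least 12.2-fold higher (adjusted p = 0.0329). In tdT- CTL cells Prss23 stood at 0.814 to 2.90 CPM. The call held without tdT- F2 and tdT- M2, and leaving out any other library gave adjusted p of 0.0543 to 0.108. With the pool as a block, adjusted p was 0.9996 for Gt(ROSA)26Sor and 0.9996 for Prss23.

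No MHC class II gene was called, but H2-Aa, H2-Ab1, H2-Eb1, Cd74, H2-DMa and H2-DMb1 stood higher in the tdT+ than in the tdT- library of each of the 3 pools. Between the populations as a whole, all of these but H2-DMa overlapped. H2-Aa stood at 2680.2, 2960.4 and 1188 CPM in tdT+ and at 1649.9, 842, 1343, 769 and 409 CPM in tdT- libraries. H2-Eb1 stood at 1880.2, 1915 and 930.0 CPM against 1108, 567, 943, 599 and 284 CPM. Cd74, the invariant chain that guides class II molecules, stood at 10274, 10716 and 5572 CPM against 6048, 4047, 5129, 3136 and 1494 CPM. The M2 pool was the lowest on both sides for all of these genes, and tdT+ M2 lay below tdT- F1 for all but H2-DMa. In the unblocked fit the log2 differences were 1.18 for H2-Aa, 1.06 for H2-Ab1, 1.17 for H2-Eb1 and 1.16 for Cd74 (SE 0.40, 0.39, 0.37 and 0.34), with adjusted p of 0.510, 0.594, 0.472 and 0.450. With the pool as a block the log2 differences were 1.46, 1.43, 1.5 and 1.45. Their unadjusted p was then 2.39e-05, 1.23e-04, 7.74e-05 and 6.88e-05, and the adjusted p 0.0957, 0.125, 0.122 and 0.122 (edgeR's quasi-likelihood test). Without tdT- F1, the library with the most monocyte transcripts, the unblocked differences were 1.34 to 1.44 and the adjusted p 0.266 to 0.367.

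**Figure D3:**
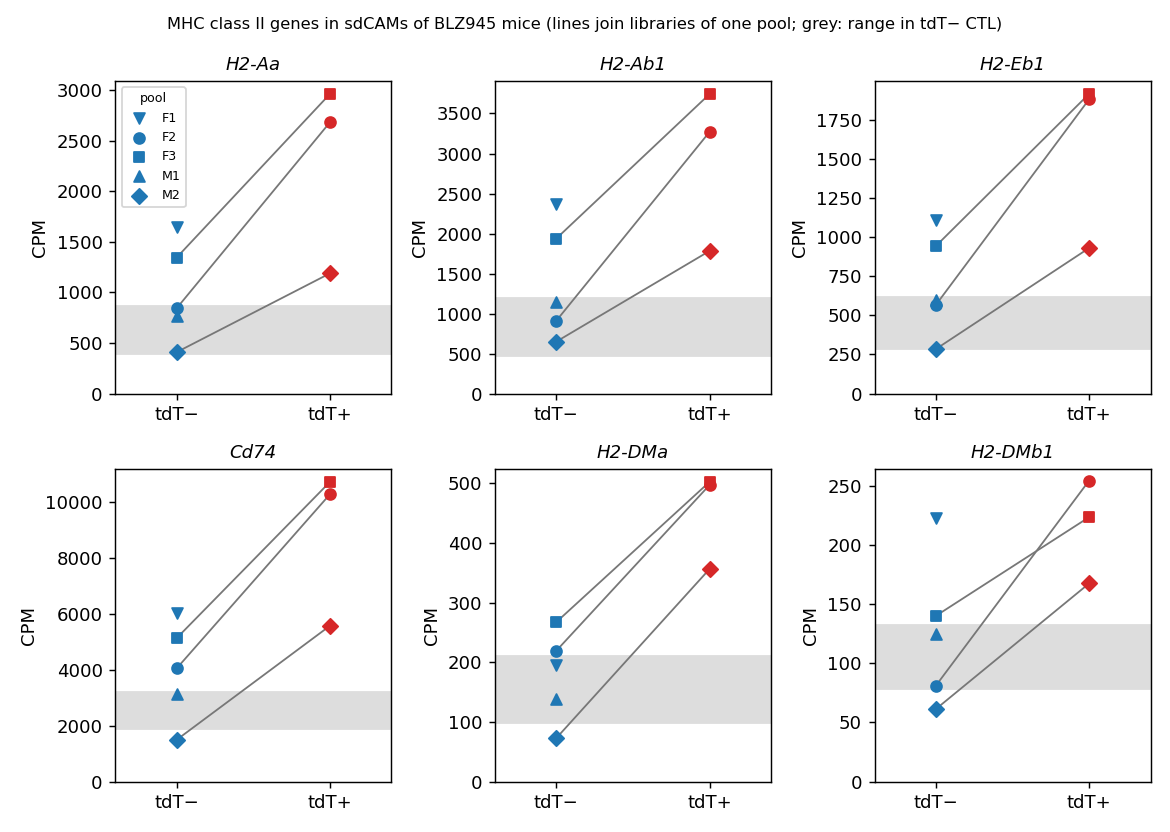
CPM of 6 MHC class II genes in tdT- and tdT+ sdCAMs of BLZ945 mice, with a marker shape for each pool, lines joining the libraries of one pool, and the range of the tdT- CTL libraries in grey. Every line rises from tdT- to tdT+, and H2-DMa is the gene whose tdT+ points all lie above all tdT- points.

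H2-DMa, a subunit of the complex that loads peptides onto class II, was the class II gene whose populations did not overlap. It stood at 497, 502 and 356 CPM in tdT+ and at 196, 219, 267, 138 and 72.8 CPM in tdT- libraries (log2 1.34, SE 0.32, adjusted p = 0.182). It was called with DESeq2 (adjusted p = 0.00669), with the pool as a random block (0.0446) and with the title letter as a term (0.0429), and Cd74 was called with DESeq2 (adjusted p = 0.0467). Its partner H2-DMb1 stood at 254, 223 and 167 CPM against 223, 81.1, 140.0, 125 and 61.3 CPM, with tdT- F1 inside the tdT+ range. Of 15 class II genes tested, 6 were higher and 1 lower at an unadjusted p under 0.05 (2.39% and 4.51% of all genes tested). In 3 of 3 pairs 6 were higher and 4 lower (13.1% and 11.8% of all genes), and the median log2 fold change was 0.13. Over the members tested with the pool as a fixed block the median was 1.27, beside 0.06 over all genes. The one lower at that p was Ifi30, a lysosomal thiol reductase, at 112 to 145 CPM against 142 to 219 CPM. Ciita, the master regulator of class II transcription, was low in all libraries at 0.191 to 2.97 CPM and 0 to 11.3 CPM, and the costimulatory gene Cd86 stood at 344 to 438 CPM and 365 to 557 CPM. Of 15 MHC class I genes, 0 were below an unadjusted p of 0.05 by edgeR and 0 were called by DESeq2, with a median log2 fold change of 0.08. H2-K1 stood at 1086, 1271 and 1029.7 CPM and 1095, 1099, 1136, 1113 and 989 CPM, and all pools were within a narrow band.

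Summed markers of other antigen-presenting cells are given beside these values. The 14 dendritic cell markers summed to 396 to 626 CPM in tdT+ and 377 to 784 CPM in tdT- libraries, with overlap. The 12 B or plasma cell markers summed to 286.2 to 379 CPM against 208 to 256 CPM and did not overlap, with Ighm the main part, while 6 of the 12 were at 0 in every tdT+ library and 8 of the 12 in every tdT- library. Cd79b stood at 30.6, 48.4 and 10.96 CPM against 4.25, 5.95, 5.30, 5.30 and 0 CPM, higher in all tdT+ libraries. Their part in the class II levels was not tested.

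The promoters of a pair of class II genes are shown because both genes stood higher in the tdT+ library of every pool. H2-Aa lies at chr17:34287774-34288073, minus strand and H2-Eb1 at chr17:34305617-34305916, plus strand (RefSeq, GRCm38.p6), with the matched motifs in capitals.
H2-Aa: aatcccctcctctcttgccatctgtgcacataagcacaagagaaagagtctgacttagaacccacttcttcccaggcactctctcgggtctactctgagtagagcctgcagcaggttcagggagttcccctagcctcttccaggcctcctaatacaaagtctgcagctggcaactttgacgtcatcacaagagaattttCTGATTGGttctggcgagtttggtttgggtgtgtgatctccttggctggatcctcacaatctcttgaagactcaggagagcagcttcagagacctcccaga
H2-Eb1: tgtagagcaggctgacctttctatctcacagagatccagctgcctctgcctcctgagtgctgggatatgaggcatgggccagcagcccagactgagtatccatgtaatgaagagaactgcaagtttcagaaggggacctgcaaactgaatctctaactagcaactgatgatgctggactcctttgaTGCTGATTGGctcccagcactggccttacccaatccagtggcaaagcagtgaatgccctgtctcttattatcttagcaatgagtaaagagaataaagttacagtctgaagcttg
H2-Aa held the Y box CTGATTGG on the forward strand at position 200. H2-Eb1 held it at position 189, where it overlaps a match to the MAF half-site TGCTGA at position 187.

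The marker genes that the study linked to macrophage origin were looked at one by one. These lists were chosen with results of these data known, so their direction is no independent evidence. Of the 4 genes linked to a yolk sac origin, edgeR called Cd163 lower (against 0.191% of all genes tested). DESeq2 called Cd163, Lyve1 and C4b lower (against 0.834%). Folr2 was called by neither, while all 4 were lower in 3 of 3 pairs (11.8% of all genes tested). C4b stood at 105, 152 and 218 CPM in tdT+ and at 381, 214, 433, 508 and 385 CPM in tdT- libraries (edgeR adjusted p = 0.296, DESeq2 0.00814). Of the 6 genes linked to an origin from haematopoietic stem cells, edgeR called 0 and DESeq2 called 1 higher, Cd74 (against 0.0153% and 0.184% of all genes tested). At an unadjusted p under 0.05 in edgeR, 5 of the 6 were higher (2.39% of all genes tested). Fxyd5, a regulator of the sodium pump, stood at 469.9, 537 and 316 CPM against 352, 305, 297, 237 and 270.8 CPM (log2 0.59, adjusted p = 0.517). Ccr2, the gene that drives the label, stood at 7.55, 41.4 and 12.3 CPM against 118, 21.6, 8.60, 25.5 and 0 CPM. tdT- F1 was the highest library for Ccr2, tdT- M2 was at 0, and the populations overlapped. The 5 common sdCAM markers had a median of -0.11, with 0 called by edgeR or DESeq2 and 0 at an unadjusted p under 0.05.

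Across 27 pathway lists, 396 genes were tested, of which edgeR called 8 lower and 0 higher (0.191% and 0.0153% of all genes), and DESeq2 16 lower and 4 higher (0.834% and 0.184% of all genes). In 20 lists edgeR called no member, and DESeq2 called at least 1 in 6 of these. The 20 lists had median log2 fold changes from -0.32 to 1.11, the highest being the list linked to haematopoietic stem cells. Of 22 chemokines, 0 were below an unadjusted p of 0.05, among them Ccl2 at 834 to 2698 CPM and 1372 to 3494 CPM, Ccl7 at 1310.1 to 4817 CPM and 1748 to 5341 CPM, and Ccl12 at 1546 to 2749.8 CPM and 1339.5 to 3299 CPM. The Toll-like receptor pathway (19 genes), immediate early genes (21) and heat shock chaperones (13) also had 0 genes below that p. Cd14 spread widely in both populations, over 1771 to 5645 CPM and 1616 to 5856 CPM. Of 27 interferon-stimulated genes, 1 was lower at that p. Of 16 inflammatory cytokine and inflammasome genes, 1 was lower as well.

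Of 30 macrophage transcription factors, edgeR and DESeq2 called 0, with 1 higher and 2 lower at an unadjusted p under 0.05 in edgeR, and the median log2 fold change was 0.00. Spi1, which encodes PU.1, stood at 353 to 483 CPM and 409.9 to 527 CPM, Maf at 915 to 1303 CPM and 859.9 to 1599 CPM, and Irf8 at 324 to 419.5 CPM and 352 to 419.9 CPM. Csf1r, the target of BLZ945, stood at 2349 to 3254 CPM and 2598 to 3930.1 CPM. Among 16 genes of TAM receptors and efferocytosis, Timd4 was the 1 called. Mertk stood at 143 to 188 CPM and 153 to 208 CPM, whereas Axl stood at 281.7, 264 and 292 CPM against 172, 127, 156, 201 and 64.9 CPM without overlap and was not called (log2 0.95, SE 0.30, adjusted p = 0.472). Mfge8, which bridges phosphatidylserine to integrins, stood at 40.02, 43.8 and 15.6 CPM against 12.9, 1.74, 8.69, 4.44 and 8.20 CPM, also without overlap (adjusted p = 0.255). A p above the threshold does not show that levels were equal.

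**Figure D4:**
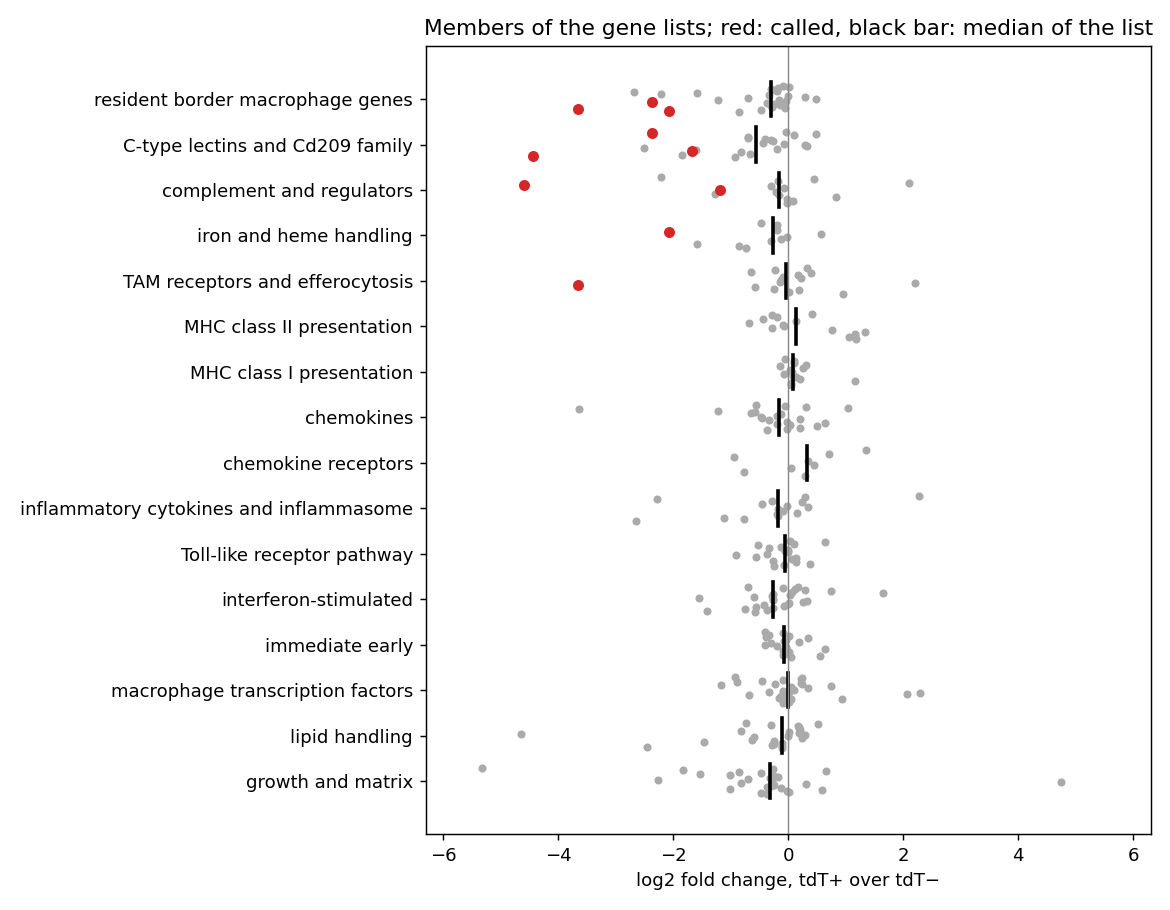
Log2 fold change of tdT+ over tdT- for each tested member of 16 gene lists (grey points, with called members in red), with a black bar at the median of each list. The called members lie in 5 lists, all left of 0, and the medians lie between -0.55 for the C-type lectins and 0.32 for the chemokine receptors.

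DESeq2, the study's tool, called 133 of the same 13076 genes (1.02%), 109 lower (0.834%) and 24 higher (0.184%), including all 27 called by edgeR. Where populations do not overlap, 3 of 3 pools move one way by definition. Of the genes DESeq2 added, 47 lower and 14 higher ones did not overlap (1.71% and 1.69% of all genes tested). The most expressed lower ones besides Lyve1 and Fcna were Gpx3 (an extracellular glutathione peroxidase), Hpgd (which inactivates prostaglandins), Aplp2, Pea15a, Hgsnat, Slc40a1, Mtdh and Ccn1. Gpx3 stood at 730.5, 692 and 584 CPM in tdT+ and at 799, 1287, 1268, 1262 and 939 CPM in tdT- libraries (DESeq2 adjusted p = 0.00669). Hpgd stood at 496, 495 and 378 CPM against 900.3, 839.8, 623, 973 and 775 CPM (DESeq2 adjusted p = 0.00669). Both were lower in tdT+ cells by less than 2-fold, since the log2 differences in the edgeR fit were -0.73 and -0.85 with adjusted p of 0.173 and 0.177.

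The most expressed higher ones were Mpeg1, H2-DMa, Jaml, Serpinf1, Lat2, Psd3, Cd79b, Mfge8, Vill and Shmt1. Mpeg1 encodes perforin-2, a pore-forming protein of phagocytes, and stood at 319.8, 275.5 and 280.3 CPM in tdT+ and at 148, 212, 128, 107 and 103 CPM in tdT- libraries (DESeq2 adjusted p = 0.00413, edgeR 0.105). Jaml, an adhesion molecule of leukocytes, stood at 154, 307 and 71.5 CPM against 53.5, 50.5, 58.9, 18.5 and 10.4 CPM (DESeq2 adjusted p = 0.0176, edgeR 0.313). Every tdT+ library was above every tdT- library for these genes, and tdT+ F3 was the highest for Jaml. With the pool as a random block in limma voom (estimated correlation 0.149), 24 genes were called (0.184%), 19 lower (0.145%) and 5 higher (0.0382%), with 18 of them among the 27. The others were Lyve1, Fcna and C2, called lower, and H2-DMa, Mpeg1 and Gpr18, called higher. C2, a complement component, stood at 0, 0 and 4.17 CPM against 17.6, 26.8, 31.7, 40.5 and 31.6 CPM. Gpr18, a receptor of leukocytes, stood at 4.50, 2.48 and 2.13 CPM and had 0 counts in all tdT- libraries.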

How the data were processed

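RNA from sorted cells was amplified with SMART-Seq mRNA LP chemistry without molecular identifiers. Per the labels, the authors aligned reads with STAR 2.7.11a and assigned them with featureCounts 2.0.6, and the deposited values were whole-number counts per gene symbol (33280 genes), not normalized. Which of the mouse builds named in the study served for this table was not clear, and how reads matching several genes were handled is not given in the sources used here. No positions in the files are used, and promoters came from a RefSeq table.

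The main test was edgeR 4.0.16 under R 4.3.3 (TMM, filterByExpr, glmQLFit and glmQLFTest) on the counts of the 13 sdCAM libraries, with Benjamini-Hochberg adjustment over 13076 genes and calls at an adjusted p under 0.05. DESeq2 1.42.0, limma 3.58.1 (voom) and scipy 1.17.1 (exact permutation test) served beside it. The reporter transcript used log2(CPM + 1).

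Groups came from the sample titles. The replicates were single animals (CTL and F2) or pools of 2, so p-values measure the spread between these. Libraries of one pool share a library name, and F2, F3 and M2 pair the populations by design. Residuals of same-pool libraries correlated at 0.0797 (F2), 0.0782 (F3) and 0.0667 (M2), and those of different pools at 0.0097 or less. Replicates of one group were not duplicates, with a chi-square per gene of at least 36.8 between any 2.

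Members and gene lists were chosen with earlier results of these data known. Named genes were the called genes (2 are not reported here), called and most expressed members of the lists (up to 6), genes called with the block alone, and up to 10 genes in each direction called by DESeq2 alone without overlap and with 3 of 3 pools agreeing. Cd79b, Aqp4, Adgre4, Hbb-bt, Cd209g, H2-DMb1, Ifi30, Ciita, Mertk, Tmem119, Olfml3 and Runx3 were named after their values were seen.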

Additional observations from a re-analysis of the deposited data

Results flagged for a closer look

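The extremes of the 5 tdT- BLZ945 libraries were checked with Dixon's test for 44 quantities, and 8 had a library farther from the rest than the 95% limit. Chance flags about 1 in 20 groups. tdT- M2 was the highest for Cd4 (68.2 CPM), Colec12 (358 CPM) and Pkp4 (80.1 CPM). tdT- F1 was the highest for Ccr2 (118 CPM), for summed monocyte markers (524 CPM) and for summed T or NK cell markers (39.9 CPM). tdT- F3 was the highest for summed choroid plexus or ependymal markers (179 CPM), and tdT- F2 for summed erythroid markers (297 CPM). For Cd4, Colec12 and Pkp4 the remaining tdT- libraries also lay above all tdT+ libraries.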

How the results depend on the processing

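The direction of the 27 called genes was the same under every alternative in which they were tested, all of which reuse these libraries. The number called was 27 with DESeq2's size factors, 29 without a filter on low counts, 19 of 8262 with at least 10 counts in every BLZ945 library, 32 with the title letter as a term, and 16 to 27 when 1 library was left out. It was 7 with the 8 BLZ945 libraries alone, 82 with all 23 libraries (55 lower and 27 higher) and 133 with DESeq2. With limma voom and quality weights it was 4, and without tdT- F1 and M1, a fit added after seeing the data, it was 15. The fits with fewer libraries had fewer residual degrees of freedom. For the others the cause was not tested.

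With the pool as a replicate block, 1 gene was called with the fixed block and 24 with the random block, and the 6 libraries of the 3 pools without the block gave 1. The reporter difference was 2.21 over the 3 pairs (p = 0.25 in an exact permutation test, two-sided, the lowest within reach of 3 pairs). It was 2.44 and 1.86 with pseudocounts of 0.5 and 5, 2.36 with size factors, and 2.26 to 2.51 when 1 library was left out. Depth limits genes below 0.328 CPM.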

Other observations

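Microglia and matrix genes outside the comparisons above are given as values. Tmem119 and Olfml3, both known from microglia and named after their values were seen, did not overlap between the populations and were not called. Tmem119 stood at 88.4, 118 and 52.5 CPM in tdT+ and at 22.6, 30.8, 20.7, 29.3 and 37.4 CPM in tdT- libraries (edgeR's quasi-likelihood test, adjusted p = 0.401). Olfml3 stood at 211, 158 and 152 CPM against 139, 123, 90.5, 107 and 64.7 CPM (adjusted p = 0.533). P2ry12, another microglia gene, stood at 367, 242 and 233 CPM against 384, 349, 272.01, 358 and 315 CPM and overlapped. Runx3, a transcription factor of leukocytes named after its values were seen, stood at 9.71, 35.5 and 18.4 CPM against 5.91, 0.924, 10.1, 4.07 and 0.437 CPM with overlap (adjusted p = 0.617).

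Spp1 (osteopontin) spread widely in tdT- cells. It stood at 306, 601 and 864 CPM in tdT+ and at 759.8, 306, 1010.0, 3531 and 4857 CPM in tdT- libraries, and was not called (adjusted p = 0.671). Adam8, a membrane protease, stood at 87.8, 59.2 and 119 CPM against 182, 176, 238, 306 and 384 CPM without overlap, and was called by DESeq2 (adjusted p = 2.44e-04) and not by edgeR (adjusted p = 0.0861). Ccn1, a matrix-associated factor, stood at 1.62, 0.477 and 28.6 CPM against 116, 173, 298, 468 and 695 CPM, called by DESeq2 (adjusted p = 2.20e-04) and not by edgeR (adjusted p = 0.0946).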
